A study of Homo sapiens with 9 samples.

Results

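The 10 genes described here encode the FOS family (FOS, FOSB, FOSL1, FOSL2), the JUN family (JUN, JUNB, JUND) and the zinc finger factors EGR1, EGR2 and EGR3. They were taken by symbol from a table of 26475 genes, in which all 10 were found, and all 10 had enough reads to be tested. RNA was measured in 9 libraries of hTERT_RPE1, a cell line from human retinal pigment epithelium made immortal with telomerase, 24 h after seeding. Control cells carried the empty pLKO_1 vector and grew on fibronectin-coated glass. The sh_PIP4K2B cells grew on the same surface with a hairpin against PIP4K2B, which encodes a lipid kinase that phosphorylates PtdIns5P. Soft cells carried the empty vector on fibronectin-coated gels of 2.3 kPa. Each condition had 3 libraries, and in sh_PIP4K2B each came from another hairpin (#1, #2 and #3), so that no hairpin was repeated. A treatment label of the Control and Soft samples names a Ctrl shRNA, so it is not settled whether those cells expressed a hairpin. Their titles name Empty pLKO_1, pLKO_2 and pLKO_3 for libraries 1, 2 and 3 of either condition. Whether that numbering marks vectors or replicates is not given.

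FOS and JUN proteins pair through leucine zippers to form the transcription factor AP-1, which binds sites of the type TGACTCA. FOS proteins need a JUN partner, whereas JUN proteins can also pair with each other or with ATF proteins. FOS, FOSB, JUNB and the EGR genes are textbook immediate early genes: growth factors, stress or stretch switch them on within minutes, without new protein synthesis, through MAP kinases that act on the serum response factor SRF with its ternary complex partners and on CREB-type factors. FOSL1 and FOSL2 follow later and are themselves driven by AP-1, and JUND is usually expressed more evenly.

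Motifs searched for near the start of these genes included sites of SRF and of CREB-type factors, which not every gene held. The bases just before the start of 7 of these genes are printed below. They are RefSeq sequences on GRCh38.p14, written 5′ to 3′ on the strand of the gene, each ending at the base before the start, with every motif found on either strand in capitals. In EGR1 and EGR2 the capitals mark the CArG box, the site bound by SRF, and ACGTCA, which is TGACGT (the half-site of the cAMP response element) read on the other strand.
EGR1, chr5:138465229-138465478, plus strand: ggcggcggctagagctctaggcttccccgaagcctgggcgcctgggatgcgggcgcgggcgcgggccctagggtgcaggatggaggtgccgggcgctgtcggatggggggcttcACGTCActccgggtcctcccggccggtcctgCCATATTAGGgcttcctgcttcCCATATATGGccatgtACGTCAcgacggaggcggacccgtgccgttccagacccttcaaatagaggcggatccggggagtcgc
EGR2, chr10:62816367-62816616, minus strand: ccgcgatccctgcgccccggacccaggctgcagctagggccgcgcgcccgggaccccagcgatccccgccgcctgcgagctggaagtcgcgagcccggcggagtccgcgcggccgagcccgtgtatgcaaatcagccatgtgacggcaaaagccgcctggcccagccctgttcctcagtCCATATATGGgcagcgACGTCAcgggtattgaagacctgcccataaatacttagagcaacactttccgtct
In FOS and FOSB the capitals mark TGACGT and TATAAA. In JUND they mark the whole cAMP response element TGACGTCA, which contains TGACGT on both strands, and a further TGACGT on the other strand.
FOS, chr14:75278578-75278827, plus strand: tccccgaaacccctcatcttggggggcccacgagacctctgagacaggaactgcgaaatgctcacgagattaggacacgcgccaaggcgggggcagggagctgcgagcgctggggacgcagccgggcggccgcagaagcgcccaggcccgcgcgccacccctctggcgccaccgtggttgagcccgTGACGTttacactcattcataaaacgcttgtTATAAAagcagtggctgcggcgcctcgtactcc
FOSB, chr19:45467746-45467995, plus strand: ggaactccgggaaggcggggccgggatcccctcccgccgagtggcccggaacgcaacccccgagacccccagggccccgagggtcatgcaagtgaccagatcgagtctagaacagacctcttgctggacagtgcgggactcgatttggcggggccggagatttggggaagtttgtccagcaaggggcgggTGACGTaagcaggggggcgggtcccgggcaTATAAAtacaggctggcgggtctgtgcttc
JUND, chr19:18281623-18281872, minus strand: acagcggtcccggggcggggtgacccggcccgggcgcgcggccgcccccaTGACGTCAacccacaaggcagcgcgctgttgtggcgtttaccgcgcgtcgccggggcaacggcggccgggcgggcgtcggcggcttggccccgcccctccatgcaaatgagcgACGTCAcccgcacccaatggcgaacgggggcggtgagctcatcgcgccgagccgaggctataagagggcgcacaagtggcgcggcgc
In JUNB the capitals mark TATAAA, and in JUN they mark TGACATCA, a site of the JUN and ATF type.
JUNB, chr19:12791236-12791485, plus strand: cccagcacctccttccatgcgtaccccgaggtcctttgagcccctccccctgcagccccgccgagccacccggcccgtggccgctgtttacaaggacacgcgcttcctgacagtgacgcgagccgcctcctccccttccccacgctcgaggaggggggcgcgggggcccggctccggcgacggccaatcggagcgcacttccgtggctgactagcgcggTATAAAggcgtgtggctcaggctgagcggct
JUN, chr1:58784048-58784297, minus strand: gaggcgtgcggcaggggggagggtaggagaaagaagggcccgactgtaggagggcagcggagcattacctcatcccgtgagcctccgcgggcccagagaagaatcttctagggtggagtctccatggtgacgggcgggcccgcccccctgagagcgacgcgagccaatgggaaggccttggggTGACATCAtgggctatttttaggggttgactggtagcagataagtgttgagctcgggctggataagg
EGR1 held CArG boxes 105 and 83 bases before the start and EGR2 held such a box 71 bases before it, whereas 1.29% of 35116 promoter windows of 300 bases hold a CArG box. The CArG boxes that regulate FOS lie further upstream than these windows reach. FOS, FOSB, FOSL2, JUND, EGR1 and EGR2 held TGACGT, at 64, 60 and 66 bases before the start in FOS, FOSB and FOSL2, against 7.98% of all windows. TATAAA lay 33, 30 and 31 bases before the start of FOS, FOSB and JUNB (11.5% of all windows). TGACTCA was found in FOSL2 (4.95% of all windows), TGACGTCA in JUND (1.85%) and TGACATCA in JUN (2.61%), while the EGR site GCGTGGGCG was in no member's window (0.795% of all windows). A match of letters says nothing of binding in these cells, and TGACGT was added to the search after the data had been seen. Promoters were found for 8 of the 10 genes, and those of FOSL1 and EGR3 are only named. EGR2 had further windows, which held none of these motifs.

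PIP4K2B was at 123, 124 and 120 CPM (counts scaled to equal library totals, here with TMM factors) in Control, at 48.4, 40.9 and 36.6 CPM with hairpins #1, #2 and #3, and at 119, 122 and 127 CPM in Soft (sh_PIP4K2B against Control log2 fold change -1.54, SE 0.12, edgeR adjusted p = 3.8e-04). Library totals ran from 19217346 to 24020799 counts, so that 3 counts, taken as the floor, correspond to 0.125 to 0.156 CPM. The hairpin libraries differed from each other much more than the replicates of the other conditions: the median SD of log2 CPM over all genes tested was 0.33 among the hairpins, 0.08 in Control and 0.07 in Soft. Of 9 markers of retinal pigment epithelium 5 stayed under 1 CPM in every library, RPE65 and TYR among them, while KRT8, KRT18, MITF and OTX2 were present (KRT18 at 877 to 937 CPM and OTX2 at 10.3 to 11.7 CPM in Control). Of 6 markers of other cells 4 stayed under 1 CPM, and COL1A1 and PECAM1 did not.

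Scaled to transcript length, FOSL1 was the most abundant of the 10 genes in every condition. Its mean level was 187 ± 3.44 CPM per kb in Control (SD, n = 3), followed by JUN (53.9 ± 0.639), JUND (33.5 ± 1.32), JUNB (17.4 ± 0.258), FOSL2 (13.3 ± 0.355) and EGR1 (6.65 ± 0.157). FOS, FOSB, EGR3 and EGR2 were all under 1 CPM per kb in Control, at means of 0.665, 0.628, 0.367 and 0.165. In Control the libraries of neighbours in this order did not overlap, other than those of FOS and FOSB. In Soft the order was FOSL1 (97.1 ± 5.65), JUND (72.4 ± 3.45), JUNB (55.0 ± 1.73), JUN (53.3 ± 3.38), EGR1 (19.8 ± 0.673), FOSL2 (18.4 ± 0.0860), FOS (3.39 ± 0.283), FOSB (3.35 ± 0.397), EGR3 (1.51 ± 0.151) and EGR2 (0.652 ± 0.240), in CPM per kb. JUN was thus second of the 10 genes in Control and behind JUND and JUNB in Soft, although the ranges of JUN and JUNB overlapped there, as did those of FOS and FOSB. In sh_PIP4K2B most neighbours overlapped, but FOSL1 stood clear of JUND (157 and above, against 139 and below), as did JUNB of FOSL2 (27.3 and above, against 20.9 and below).

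**Figure D1:**
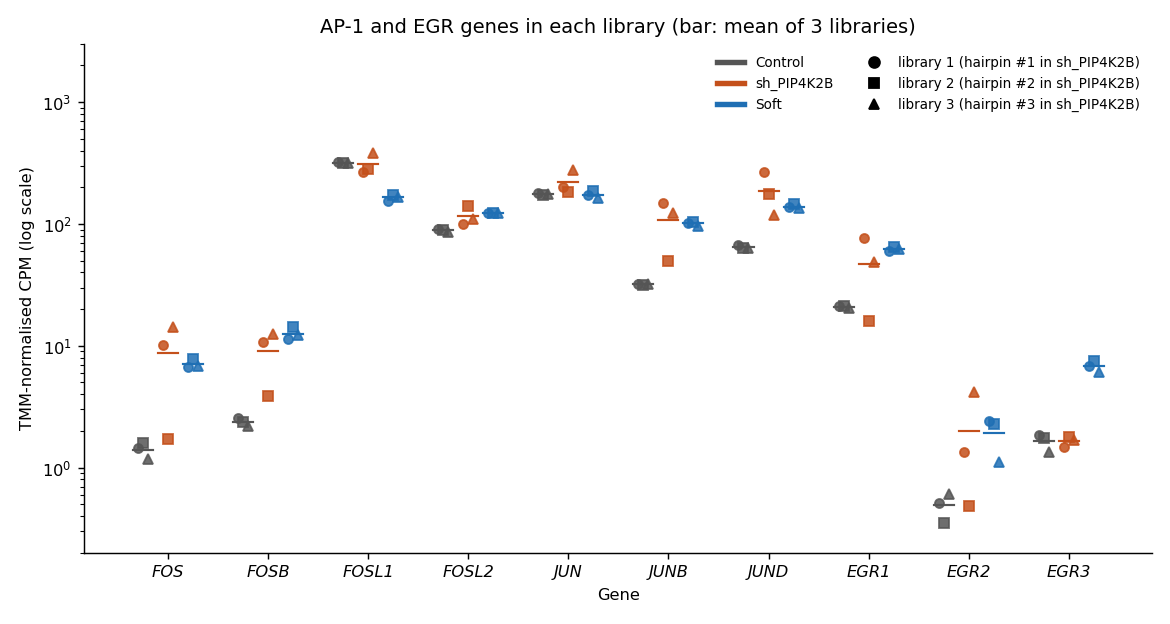
TMM-normalised CPM (log axis) of the 10 AP-1 and EGR genes in each of the 9 libraries, with circles, squares and triangles for libraries 1, 2 and 3 (hairpins #1, #2 and #3 in sh_PIP4K2B) and bars for the mean of each condition. Control and Soft libraries lie close together, while for FOS, FOSB, JUNB, EGR1 and EGR2 the square of hairpin #2 lies nearest to Control and the markers of hairpins #1 and #3 lie above it.

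On the soft gel FOSB, JUNB, JUND and EGR3 rose and FOSL1 fell, which makes 5 of the 10 genes past the threshold (adjusted p below 0.01 over the 13784 genes tested, edgeR), where 30.6% of all genes tested passed. FOS, FOSL2, EGR1 and EGR2 lay above Control in all 3 libraries without passing, and the libraries of JUN spanned those of Control. Libraries of Soft and Control did not overlap for 9 of the 10 genes, against 79.4% of all genes tested. The median log2 fold change was 1.62 over the 10 genes and 0.01 over all genes. With only the 6 libraries of these conditions in the fit, 9 of the 10 passed, where 70.7% of all genes did, with DESeq2 8 of the 10 passed, where 39.6% did, and at a threshold of 0.05 9 of the 10 passed, where 47.1% did.

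In sh_PIP4K2B FOSB, JUNB and JUND rose and no member fell, so that 3 of the 10 genes passed, where 5.54% of all genes tested did and 2.76% did so as higher. The median log2 fold change was 1.35 over the 10 genes and 0.05 over all genes. All 3 hairpin libraries lay above all Control libraries for FOS, FOSB, FOSL2, JUN, JUNB and JUND, that is 6 of the 10 genes, where 17.4% of all genes tested had all hairpin libraries above Control. With only the 6 libraries of sh_PIP4K2B and Control in the edgeR fit, 0 of the 10 genes passed (7 at an unadjusted p under 0.05), where 0.0375% of all genes did. With any 1 Control or Soft library left out the edgeR count was also 0 (6 or 7 at an unadjusted p under 0.05). Far fewer of all genes tested passed in those fits than with all libraries, so these counts of 0 do not set the members apart. With DESeq2 on all libraries 4 of the 10 passed, where 15.0% of all genes did.

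Set directly against each other, Soft and sh_PIP4K2B differed in EGR3, which was higher in Soft, and in FOSL1, which was lower, so that 2 of the 10 genes passed, where 30.0% of all genes tested did. Those were also the genes whose libraries did not overlap between these conditions, against 54.0% of all genes. The median log2 fold change was -0.06. The comparisons of Soft and of sh_PIP4K2B with Control share the Control libraries, so their values are given side by side below.

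**Figure D2:**
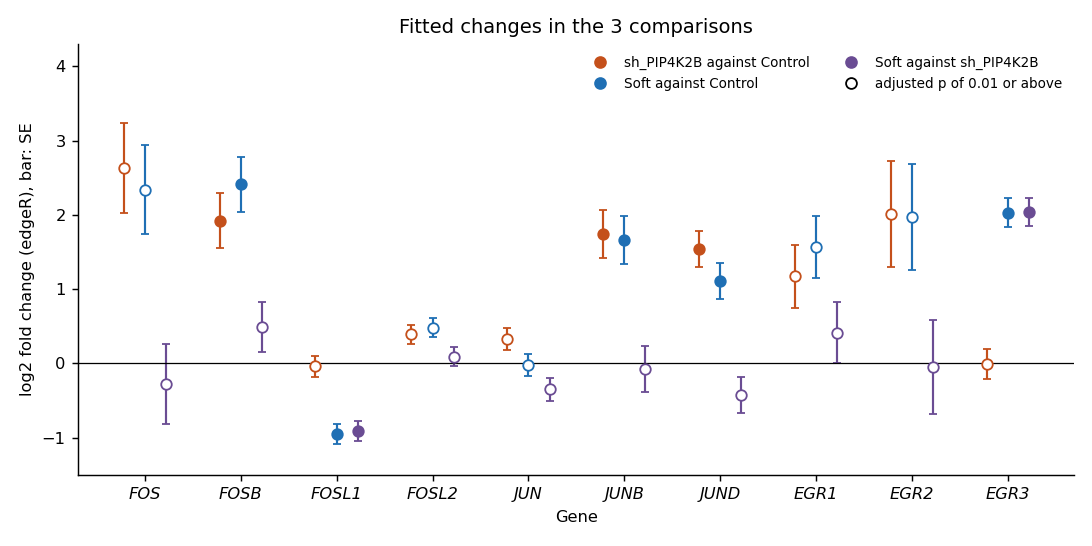
Log2 fold changes with their SE (edgeR) for the 10 genes in the comparisons of sh_PIP4K2B with Control, of Soft with Control and of Soft with sh_PIP4K2B, filled where the adjusted p was below 0.01. Filled points above 0 stand for FOSB, JUNB and JUND in both comparisons with Control and for EGR3 in both comparisons of Soft, and filled points below 0 stand for FOSL1 in the comparisons of Soft.

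FOS (chromosome 14, 75278826 to 75282230, GENCODE 44), the classic serum-induced partner of JUN, was at 1.44, 1.58 and 1.18 CPM in Control. It was at 10.1, 1.73 and 14.2 CPM with hairpins #1, #2 and #3, and at 6.70, 7.81 and 6.88 CPM in Soft. The Soft libraries lay together and well above Control, whereas hairpin #2 was only just above the highest Control library and hairpins #1 and #3 were above Soft. Its log2 fold change was 2.34 in Soft (SE 0.60, edgeR adjusted p = 0.0108) and 2.63 in sh_PIP4K2B (SE 0.60, edgeR adjusted p = 0.0184), so that neither passed. Without hairpin #2, the hairpin library in which FOS was lowest, FOS passed in both comparisons with Control (edgeR adjusted p = 5.8e-05 in Soft and 2.6e-04 in sh_PIP4K2B). In sh_PIP4K2B it did not pass without hairpin #1 or without hairpin #3. Leaving out the lowest hairpin library favours a pass, so no conclusion is drawn from the fit without hairpin #2. In bulk RNA a higher level in every cell and a larger share of cells with the transcript cannot be told apart.

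FOSB (chromosome 19, 45467995 to 45475179), whose product also pairs with JUN proteins, rose in both conditions. Control libraries were at 2.56, 2.37 and 2.18 CPM, the hairpin libraries at 10.7, 3.85 and 12.4 CPM and the Soft libraries at 11.4, 14.3 and 12.2 CPM. No Control library reached either condition. FOSB had a log2 fold change of 2.41 in the Soft condition (SE 0.37, edgeR adjusted p = 7.4e-04) and 1.92 in sh_PIP4K2B (SE 0.37, edgeR adjusted p = 0.0094), and Soft against sh_PIP4K2B gave 0.49 (SE 0.34, edgeR adjusted p = 0.261). FOSB overlaps ERCC1 on the other strand, which did not pass in either comparison (mean 74.3 CPM in Control and 79.4 in Soft).

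FOSL1 (chromosome 11, 65892049 to 65900573), which encodes FRA-1, was the member that fell on the soft gel. It was at 325, 316 and 314 CPM in Control, at 268, 281 and 379 CPM with hairpins #1, #2 and #3, and at 155, 174 and 167 CPM in Soft. All Soft libraries lay below all others, at a mean of 51.9% of Control, while the hairpin libraries lay on both sides of Control. In the fit the log2 fold change was -0.95 in Soft (SE 0.14, edgeR adjusted p = 6.3e-04), -0.04 in sh_PIP4K2B (SE 0.14, edgeR adjusted p = 0.867) and -0.91 between Soft and sh_PIP4K2B (SE 0.14, edgeR adjusted p = 8.2e-04).

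FOSL2 (chromosome 2, 28392448 to 28417317), which encodes FRA-2, was at 91.1, 89.4 and 86.4 CPM in Control, 99.4, 140 and 109 CPM with hairpins #1, #2 and #3, and 124, 123 and 124 CPM in Soft. Its differences were small and did not pass, with a log2 fold change of 0.48 on the soft gel (SE 0.13, edgeR adjusted p = 0.0138) and 0.39 in sh_PIP4K2B (SE 0.13, edgeR adjusted p = 0.068). It was the only member with its highest hairpin level in the library of hairpin #2, apart from EGR3, whose hairpin libraries did not stand out from Control. FOSL2 overlaps FOSL2-AS1 on the other strand, and whether reads were assigned by strand is not given in the sources used here.

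JUN (chromosome 1, 58776845 to 58784048), the strongest activator of its family, did not pass in either comparison with Control. It was at 178, 174 and 175 CPM in Control, 201, 182 and 279 CPM with hairpins #1, #2 and #3, and 173, 185 and 163 CPM in Soft. The hairpin libraries were just above Control, mostly through hairpin #3, and the Soft libraries spanned Control. JUN gave a log2 fold change of 0.33 in sh_PIP4K2B (SE 0.15, edgeR adjusted p = 0.171) and -0.02 in Soft (SE 0.15, edgeR adjusted p = 0.933), the latter with a sign that depends on the scaling (0.09 by library size and 0.04 by the upper quartile).

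JUNB (chromosome 19, 12791486 to 12793315), a weaker activator that can restrain JUN, was at 32.1, 31.4 and 32.3 CPM in Control. With hairpins #1, #2 and #3 it was at 148, 50 and 122 CPM, and in Soft at 102, 103 and 97.1 CPM. All libraries of both conditions lay above Control, and the Soft libraries lay between hairpin #2 and the other two. This amounted to a log2 fold change of 1.74 in sh_PIP4K2B (SE 0.32, edgeR adjusted p = 0.0074) and 1.66 in Soft (SE 0.32, edgeR adjusted p = 0.0023). Transcripts of HOOK2 hold, on the other strand, 10.5% of the 75-mers of JUNB. HOOK2 lay well under JUNB, at 9.23 ± 0.298 CPM in Control, 8.73 ± 1.37 CPM with the hairpins and 19.8 ± 0.114 CPM on the soft gel (SD, n = 3), and its part in the level of JUNB was not tested.

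JUND (chromosome 19, 18279694 to 18281622) was the member that stood over 2-fold above Control with hairpin #2. It was at 67.5, 63.0 and 63.2 CPM in Control, 268, 175 and 119 CPM with hairpins #1, #2 and #3, and 138, 147 and 134 CPM in Soft. Every hairpin and Soft library lay above Control, and the order of the hairpins differed from that in FOS, FOSB and JUNB, with hairpin #3 lowest. The log2 fold change was 1.54 in sh_PIP4K2B (SE 0.24, edgeR adjusted p = 0.0039) and 1.11 in Soft (SE 0.24, edgeR adjusted p = 0.0046).

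Members of a family share their partners, so their shares were also computed from levels per kb. FOSL1 made up 92.8 ± 0.143% of the FOS family in Control, 88.3 ± 1.02% in sh_PIP4K2B and 79.4 ± 0.634% in Soft (SD, n = 3). In Soft FOSL2 held 15.1 ± 0.829%, FOS 2.77 ± 0.122% and FOSB 2.73 ± 0.197%, so that FOSL1 still dominated the transcripts, and the family total was 122 ± 6.19 CPM per kb against 202 ± 3.84 in Control. JUN made up 51.4 ± 0.401% of its family in Control and 29.5 ± 0.505% in Soft, and its shares in the hairpin libraries were 21.9, 32.1 and 40.0%. None of these libraries reached the Control share, while the family total was 105 ± 2.07 CPM per kb in Control, 181 ± 8.36 CPM per kb in Soft and 282, 174 and 214 CPM per kb with the hairpins. JUND held 31.9 ± 0.641% of the family in Control and 40.1 ± 0.345% in Soft (SD, n = 3), and 49.4, 52.2 and 28.8% with hairpins #1, #2 and #3, the last of these below every Control library. JUNB held 16.6 ± 0.292% in Control and 30.5 ± 0.633% in Soft (SD, n = 3), and 28.7, 15.7 and 31.1% with the hairpins, of which hairpin #2 lay below every Control library. These shares were not tested, since they follow from the levels above.

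**Figure D3:**
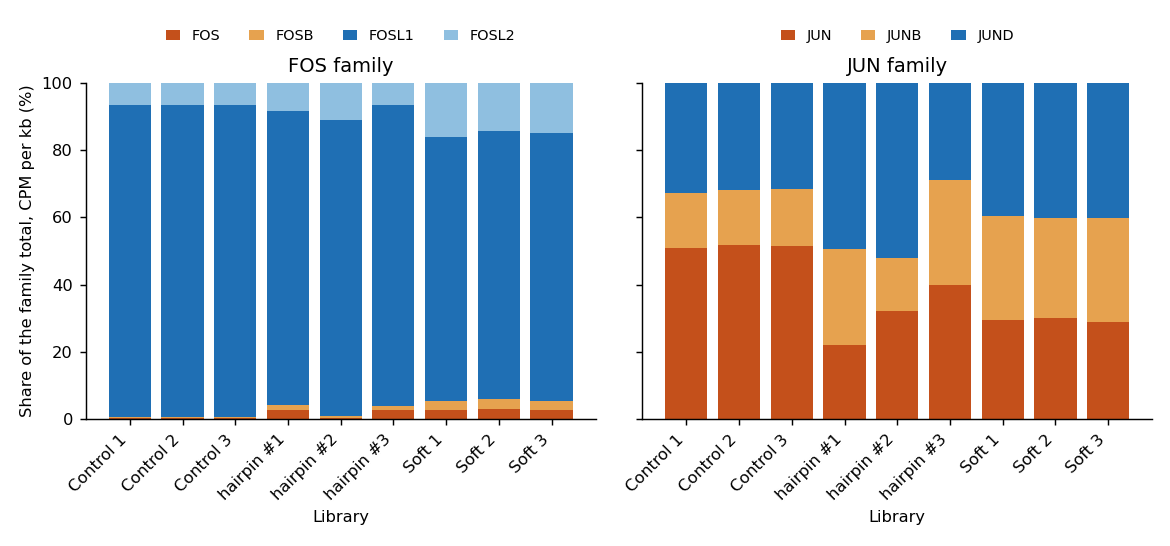
Shares of the FOS family (left) and the JUN family (right) in each library, in percent of the family's summed CPM per kb of transcript. FOSL1 fills most of the FOS family throughout, with larger shares of FOSL2, FOS and FOSB in the Soft libraries, and JUN fills less of its family in every hairpin and Soft library than in Control.

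EGR1 (chromosome 5, 138465479 to 138469303), the zinc finger factor most readily induced by serum and mechanical stimuli, was at 21.1, 21.2 and 20.3 CPM in Control. With hairpins #1, #2 and #3 it was at 76.0, 15.9 and 48.7 CPM, and in Soft at 59.9, 64.1 and 62.4 CPM. Hairpin #2 was below all Control libraries while hairpins #1 and #3 were above them, and the Soft libraries lay within a narrow band at 2.98-fold of the Control mean. EGR1 gave a log2 fold change of 1.57 in the Soft condition (SE 0.42, edgeR adjusted p = 0.0133) and 1.17 in sh_PIP4K2B (SE 0.42, edgeR adjusted p = 0.0865). Without hairpin #2, the library in which EGR1 was lowest, EGR1 passed in both (edgeR adjusted p = 1.3e-04 in Soft and 8.3e-04 in sh_PIP4K2B). In sh_PIP4K2B it did not pass without hairpin #1 or without hairpin #3 (edgeR adjusted p = 0.231 and 0.117). Leaving out the lowest library favours a pass, so no conclusion is drawn from that fit. When Soft and Control were fitted without the hairpins, edgeR gave EGR1 an adjusted p of 9.2e-13.

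EGR2 (chromosome 10, 62811996 to 62819167), known from myelinating Schwann cells, was scarce, with 8 to 14 counts in the Control libraries. It was at 0.512, 0.351 and 0.612 CPM in Control, 1.34, 0.482 and 4.2 CPM with hairpins #1, #2 and #3, and 2.42, 2.29 and 1.12 CPM in Soft. All Soft libraries exceeded Control, and hairpin #2 lay within the Control range. The log2 fold change was 1.97 in Soft (SE 0.71, edgeR adjusted p = 0.0449) and 2.01 in sh_PIP4K2B (SE 0.71, edgeR adjusted p = 0.0805).

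EGR3 was, beside FOSL1, a member that differed between the soft gel and the knockdown. It was at 1.86, 1.76 and 1.35 CPM in Control, 1.47, 1.78 and 1.68 CPM with hairpins #1, #2 and #3, and 6.79, 7.48 and 6.12 CPM in Soft. The hairpin libraries fell within the Control range and the Soft libraries stood apart, at 4.1 times the Control mean. EGR3 gave a log2 fold change of 2.03 in the Soft condition (SE 0.19, edgeR adjusted p = 5.7e-05) and 2.04 between Soft and sh_PIP4K2B (SE 0.19, edgeR adjusted p = 7.1e-05), against -0.01 in sh_PIP4K2B (SE 0.20, edgeR adjusted p = 0.978). EGR4, the remaining gene of the family, had 0 to 3 counts in every library and was not tested.

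The hairpins, each in 1 library and therefore without a replicate check, divided the 10 genes. FOS, FOSB, JUNB, EGR1 and EGR2 were over 2-fold above the Control mean with hairpins #1 and #3 and within 2-fold of it with hairpin #2. This pattern held for 5 of the 10 genes, against 1.33% of all genes tested. It was written from the values of these same genes, so the shares describe it and test nothing. Over 2-fold above the Control mean were 6 of the 10 genes with hairpin #1 (7.63% of all genes), 1, which was JUND, with hairpin #2 (4.37%) and 5 with hairpin #3 (8.05%). The folds with hairpins #1, #2 and #3 were 7.2, 1.24 and 10.2 for FOS, 4.5, 1.62 and 5.23 for FOSB, and 4.62, 1.57 and 3.84 for JUNB. They were 3.64, 0.762 and 2.34 for EGR1, and 2.72, 0.98 and 8.54 for EGR2. PIP4K2B itself was at 0.396, 0.335 and 0.3 times the Control mean in the same libraries, so that hairpin #2 stood between the other two in the level of the targeted transcript.

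The SD of log2 CPM over the 3 hairpin libraries was 1.45 for FOS, 1.14 for EGR1 and for EGR2, 0.85 for FOSB and 0.83 for JUNB, which follows from the pattern by which these 5 genes were picked. It was 0.58 for JUND, 0.27, 0.26 and 0.32 for FOSL1, FOSL2 and JUN, and 0.11 for EGR3. In Control the SD of all members but EGR2, EGR3 and FOS was below 0.1. When each hairpin was fitted as a group of its own, a choice made after seeing the data that assumes a lone library to vary like Control and Soft replicates, hairpin #2 gave higher FOSL2, JUNB and JUND and lower EGR1. That made 4 of the 10 genes, where 36.2% of all genes passed, while hairpin #1 gave 6 (55.1% of all genes) and hairpin #3 gave 9 (46.2% of all genes). FOSL1 was lower with hairpin #1 (-0.25, edgeR adjusted p = 0.0029) and higher with hairpin #3 (0.25, edgeR adjusted p = 0.0025) in that fit, which compares libraries and not conditions.

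**Figure D4:**
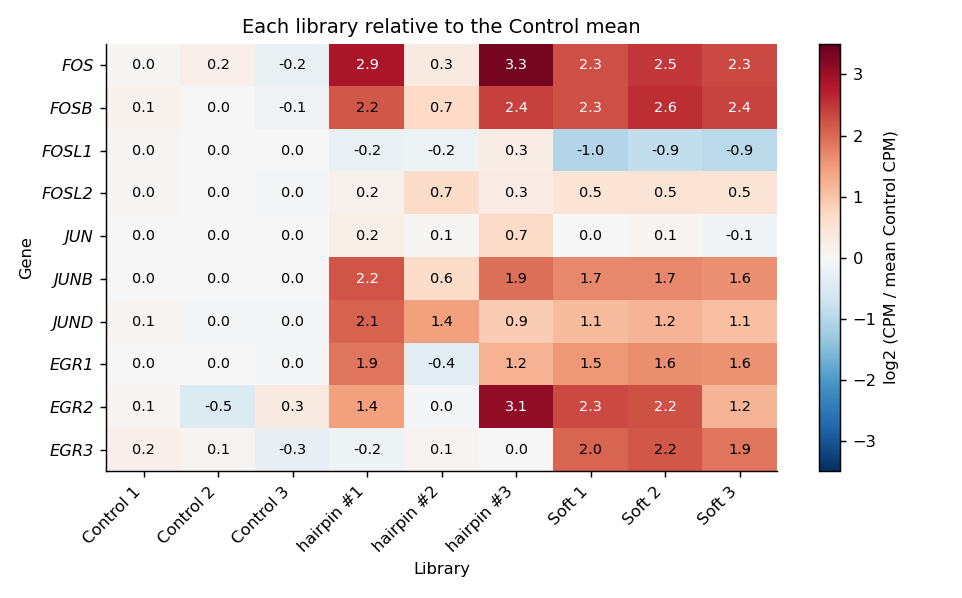
Log2 ratio of each library's CPM to the mean of Control for the 10 genes (rows) in the 9 libraries (columns), red for higher and blue for lower. The column of hairpin #2 is pale for FOS, EGR1 and EGR2 where hairpins #1 and #3 are red, the row of FOSL1 is blue in the Soft columns, and the row of EGR3 is red in the Soft columns alone.

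Heat shock genes, a sign of stressed cells, moved in the same libraries in part. The summed level of 10 heat shock genes was 6020 to 6100 CPM in Control, 11000, 6670 and 5980 CPM with hairpins #1, #2 and #3, and 4300 to 4360 CPM in Soft. In sh_PIP4K2B 3 of the 10 rose (HSPA6, HSPA1A and HSPH1), where 2.76% of all genes tested did, and 7 did not pass. Among those 7 were DNAJB1 and BAG3, with log2 fold changes of -0.03 and -0.02. In Soft HSPA8 fell, where 14.8% of all genes did. HSPA8, an abundant constitutive member, gave 2270 ± 13.8 CPM of the summed level in Control, and HSP90AA1 gave 2280 ± 52.9 CPM (SD, n = 3). With hairpins #1, #2 and #3 HSP90AA1 was at 4430, 2450 and 1750 CPM, in the same order as the summed level. HSPA6, HSPA1A and HSPH1 lay above Control with every hairpin. HSPA6, the strictly inducible member, was at 126, 10.5 and 17.9 CPM with the hairpins, against 1.03 ± 0.0243 CPM in Control (SD, n = 3) and 0.190 to 0.365 CPM in Soft. HSPA1A, an inducible HSP70, was at 1050, 470 and 349 CPM with the hairpins, against 95.7 ± 5.16 CPM in Control and 178 ± 11.3 CPM in Soft (SD, n = 3). HSPH1, a co-chaperone of HSP70, was at 551, 366 and 348 CPM with the hairpins, against 202 ± 7.42 CPM in Control and 184 ± 8.74 CPM in Soft (SD, n = 3). The part of heat shock in the levels of the AP-1 and EGR genes was not tested.

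Possible partners and co-repressors of the 10 genes were looked at in the same fit. Of 11 other basic leucine zipper genes tested, ATF3 rose in sh_PIP4K2B and NFE2L2 rose in Soft, and no other passed in either comparison. Of all genes tested 5.54% passed in sh_PIP4K2B and 30.6% in Soft. Only 2 co-repressors, NAB1 and NAB2, were tested, too few for their count to be read. ATF3, a stress-induced partner of JUN, was at 10.8, 11.5 and 9.26 CPM in Control, 64.7, 19 and 42.3 CPM with hairpins #1, #2 and #3, and 4.97, 8.81 and 6.48 CPM in Soft. It thus followed the hairpin order of JUNB but lay below Control in Soft (log2 fold change 2.00 in sh_PIP4K2B, SE 0.39, adjusted p = 0.0094, and -0.64 in Soft, SE 0.39, edgeR adjusted p = 0.209). NFE2L2, the oxidative stress factor NRF2, rose on the soft gel by 1.14 on the log2 scale (SE 0.16, edgeR adjusted p = 4.3e-04). NAB2, an EGR target that represses EGR factors in turn, was at 25.5, 26.2 and 23.7 CPM in Control, 134, 19 and 44.5 CPM with the hairpins and 53.6, 59.1 and 55.2 CPM in Soft, and did not pass (edgeR adjusted p = 0.108 in sh_PIP4K2B and 0.106 in Soft). Its hairpin #2 library lay below Control, as that of EGR1 did. NAB1 did not pass either (log2 fold change 0.51 in sh_PIP4K2B and 0.54 in Soft).

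The other 41 immediate early genes on the list were divided. In sh_PIP4K2B 7 rose and none fell, where 2.76% of all genes tested rose and 2.77% fell (median log2 fold change 0.41, against 0.05 over all genes tested). In Soft 11 rose and 12 fell, where 15.8% of all genes rose and 14.8% fell (median 0.05, against 0.01). PTGS2, which encodes the prostaglandin synthase COX-2, and the nuclear receptors NR4A2 and NR4A3 rose in both. PTGS2 was at 6.43, 6.80 and 8.39 CPM in Control, 93, 39.6 and 25.9 CPM with hairpins #1, #2 and #3, and 63.7, 103 and 78.5 CPM in Soft (log2 fold change 2.87 and 3.5 in sh_PIP4K2B and Soft, edgeR adjusted p = 0.0033 and 2.6e-04). In these and in BTG2, hairpin #2 lay above every Control library. BTG2, an antiproliferative gene, was at 84.6, 94.5 and 71.5 CPM with the hairpins against 12.9 ± 0.555 CPM in Control and 7.57 ± 0.166 CPM in Soft (SD, n = 3), so that it rose in sh_PIP4K2B and fell in Soft.

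On the soft gel, falls on that list included CTGF and CYR61, matricellular proteins and known YAP targets, and HBEGF, a ligand of the EGF receptor. HBEGF was at 113, 118 and 113 CPM in Control, 49.9, 143 and 126 CPM with the hairpins, and 17.9, 22.6 and 19.3 CPM in Soft (log2 fold change -2.53 in Soft, SE 0.33, edgeR adjusted p = 3.1e-04). CTGF and CYR61 had log2 fold changes of -3.11 and -1.70 in Soft (edgeR adjusted p = 4.9e-06 and 5.0e-05). IER2, which is induced along with FOS in many cells, was at 77.8 ± 1.30 CPM in Soft and 80.4 ± 3.90 CPM in Control (SD, n = 3), and with hairpins #1, #2 and #3 at 149, 75 and 84.1 CPM.

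Of 29 upstream kinases and factors, 1 passed in sh_PIP4K2B and 9 in Soft, shares near those of all genes tested (5.54% and 30.6%), so the counts set this list apart from other genes in neither comparison. RPS6KA4, which encodes the nuclear kinase MSK2, fell in both, from 120 ± 6.01 CPM in Control to 64.6 ± 10 CPM with the hairpins and 59.6 ± 2.34 CPM on the soft gel (SD, n = 3; log2 fold changes -0.90 and -1.01, edgeR adjusted p = 0.0021 and 2.1e-04). Its paralogue RPS6KA5 (MSK1) was higher in Soft, at 3.26 ± 0.397 CPM against 0.666 ± 0.233 CPM in Control (SD, n = 3; log2 fold change 2.28, edgeR adjusted p = 0.0033). MEF2A, RPS6KA2, MAP2K5, MAP2K6, MAPK3 and MEF2D also rose in Soft, and MAP2K3 fell (log2 fold change -1.10, edgeR adjusted p = 0.0082). MAP2K6 was scarce, with 0 counts in every Control library and 11 to 14 counts in the Soft libraries. SRF was at 76.7, 75.8 and 76.9 CPM in Control, 89.4, 67.2 and 81.9 CPM with the hairpins and 57.7, 66.0 and 68.8 CPM in Soft, and did not pass (log2 fold change 0.06 and -0.25, edgeR adjusted p = 0.786 and 0.122).

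Genes known as targets of AP-1 or EGR factors moved in both directions. Of 16 AP-1 targets tested, 1 rose and 3 fell in either comparison with Control, where 5.54% of all genes passed in sh_PIP4K2B and 30.6% in Soft (median log2 fold change -0.38 in sh_PIP4K2B and -0.13 in Soft). MMP1, an interstitial collagenase, rose with the hairpins (4.51, 0.867 and 3.11 CPM with hairpins #1, #2 and #3, against 0.279, 0.219 and 0.218 CPM in Control; log2 fold change 3.54, SE 0.68, edgeR adjusted p = 0.0093), and it had 0 to 4 counts in Soft, at or near the floor. IL6 rose in Soft (log2 fold change 1.91, SE 0.25, edgeR adjusted p = 3.1e-04), while CCND1 (-2.20) fell there, KRT18 fell in both (-1.10 and -1.31) and HMGA1 and MT2A fell in sh_PIP4K2B. Among the 10 EGR targets tested, ICAM1 and TGFB1 rose in Soft (log2 fold changes 3.28 and 1.40), and F3, FGF2 and THBS1 fell in Soft (-2.65, -2.07 and -1.46). ICAM1, an adhesion receptor for leukocytes, was at 5.11, 4.82 and 50.5 CPM with the hairpins, 4.49 ± 0.202 CPM in Control and 43.7 ± 0.804 CPM in Soft (SD, n = 3), so that only hairpin #3 reached the Soft level.

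Over the 9 libraries, which share 3 conditions and are therefore not independent points, log2 levels of FOS, FOSB and JUNB ran closely together (Pearson r of 0.97 for FOS and JUNB, 0.95 for FOS and FOSB). EGR1 had r = 0.91 with FOS and 0.93 with FOSB, and FOSL1 and EGR3 ran opposite to each other (r = -0.93). Among 11684 other genes with enough counts, the patterns most like that of FOS were those of ZNF16, SETD5 and ASB7 (r = 0.984, 0.982 and 0.978) and those most like EGR1 were RGL2, FIZ1 and CADM4 (r = 0.985, 0.982 and 0.982). Most like FOSL1 were SLC20A2 and MAP3K7CL (r = 0.996 and 0.994), and most like JUN were PPP1R15A and SELK (r = 0.979 and 0.976).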

How the data were processed

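Stranded mRNA libraries were sequenced as paired reads of 75 nt. Reads were aligned to GRCh38/hg38 with STAR, and the submitters' processing notes also name Salmon; the tool that assigned reads to genes and its annotation are not given in the sources used here. The values the authors deposited are estimated counts for each gene without scaling, and 12.3% of them were not whole. Rounded counts of all 9 libraries entered 1 quasi-likelihood model of edgeR 4.0.16 (R 4.3.3) after filterByExpr and TMM scaling. P-values were adjusted by Benjamini-Hochberg over 13784 genes, with a threshold of 0.01. SE values were derived from the F statistic, and the script was tested on simulated data. DESeq2 1.42.0 and 17 other settings were alternatives. The members and gene lists were chosen with earlier results of these data known, and the lists were written by hand from general knowledge. All 10 members were named, with PIP4K2B, HSPA6, SRF, ATF3, IER2, NAB1, NAB2 and, from each list and comparison with Control, up to 3 genes per direction with the largest change past the threshold and 50 or more counts as the mean of a condition. HOOK2, ERCC1, EGR4, MAP2K5, MAP2K6, MAPK3, MEF2D, DNAJB1, BAG3, HSP90AA1, RPE65, TYR and MITF were named for their place beside a member or on a list, after their values were seen. The 3 most alike genes of FOS, FOSL1, JUN and EGR1 were taken by Pearson correlation of log2(CPM + 0.5). Transcript lengths and positions are those of GENCODE 44 (canonical transcripts), and 75-mers were looked up on both strands. Nothing says that Control and Soft replicates were separate cultures, so p-values measure the spread between these samples, which may be technical. No libraries agreed within sampling noise. Protein sequences were not analysed here. Some genes that the rule would name are not reported here.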

Additional observations from a re-analysis of the deposited data

Results flagged for a closer look

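EGR3 and FOSL1 differed between the soft gel and the knockdown in the direct test of Soft against sh_PIP4K2B (edgeR, n = 3 libraries per condition). EGR3 was higher in Soft by a log2 fold change of 2.04 (SE 0.19, adjusted p = 7.1e-05), in each Soft library above each hairpin library. FOSL1 had a log2 fold change of -0.91 (SE 0.14, adjusted p = 8.2e-04), and its level in each Soft library (155, 174 and 167 CPM) was below that in each hairpin library (268, 281 and 379 CPM). Both differences also passed when only these conditions were in the fit (adjusted p = 0.0012 for EGR3 and 0.0076 for FOSL1, edgeR).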

How the results depend on the processing

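In sh_PIP4K2B against Control, 3 members passed. The count was 0 with only the conditions compared (edgeR, 7 members at an unadjusted p under 0.05) and 0 at a threshold of 0.001, 1 (JUND) with the replicate number as a block, 2 by library size and 4 with DESeq2, and with single libraries left out it ran from 0 to 5. It was 0 without Control replicate 1, 2 or 3 or Soft replicate 1, 2 or 3, 1 without hairpin #3 (JUND), 2 without hairpin #1 and 5 without hairpin #2, which added EGR1 and FOS. Of the hairpin libraries, that of hairpin #2 held the lowest EGR1 and FOS, so leaving it out favours their pass. Without a Control or Soft library far fewer of all genes tested passed than in the main fit, and without a hairpin more did. The counts of 0 without a Control or Soft library therefore do not set the members apart. In Soft against Control, 5 members passed. The count was 8 with DESeq2, 9 with only the conditions compared, 9 at 0.05 and 3 at 0.001. With single libraries left out it ran from 3 (EGR3, FOSB and FOSL1, with any 1 Control library left out) to 8 (without hairpin #2). In Soft against sh_PIP4K2B, 2 members passed, with 2 to 4 when single libraries were left out (4 without hairpin #2). For the fits of Soft with a library left out or at 0.001, the share of all genes is not given here. Those counts therefore only describe the fits. The causes of these shifts were not tested.

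No member that passed in a comparison changed direction under any alternative. Differences that did not pass changed sign near 0 or with a hairpin left out. In sh_PIP4K2B these were FOSL1 (0.05 by library size, -0.21 to 0.05 with single libraries left out), EGR3 (0.07 by library size, -0.14 to 0.08), and, with single libraries left out, IER2 (-0.02 to 0.54) and SRF (-0.04 to 0.16). In Soft they were JUN (0.00 with at least 10 counts in every library, 0.09 by library size, 0.04 by upper quartile, -0.07 to 0.02 with single libraries left out) and IER2 (0.06 by library size, 0.01 by upper quartile). In Soft against sh_PIP4K2B they were, with a hairpin left out, FOS (-0.77 to 0.25), FOSL2 (-0.02 to 0.24), JUNB (-0.43 to 0.21), EGR1 (-0.01 to 0.93) and EGR2 (-0.51 to 1.07), and JUNB (0.00) and EGR2 (0.28) with the replicate block and EGR2 (0.03) by upper quartile.

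Same-numbered samples did not deviate together (correlations of -0.10 to 0.04), so no pairing by number was seen. In sh_PIP4K2B each number also stands for another hairpin, so this check does not exclude a pairing there. The block left the counts in Soft at 5 and between Soft and sh_PIP4K2B at 2. EGR2 and FOS had low counts in Control (8 to 14 and 27 to 36), which limits the precision of their folds, and a hairpin effect cannot be told from a library effect.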

Other observations

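Single genes of the marker lists also moved on the soft gel, and of those given here only OTX2 also passed in sh_PIP4K2B. PECAM1, an adhesion receptor best known from endothelium, was at 0.0466, 0.0439 and 0.218 CPM in Control, 0.23, 0.0482 and 0.346 CPM with hairpins #1, #2 and #3, and 4.70, 5.33 and 4.34 CPM in Soft (log2 fold change 5.45 in Soft, SE 0.54, adjusted p = 7.3e-05, edgeR), while CDH5, a defining gene of endothelium, stayed at or under 0.0482 CPM in every library. OTX2, a factor of retinal pigment epithelium, rose in both comparisons with Control (log2 fold change 0.65 in sh_PIP4K2B, adjusted p = 0.0091, and 1.77 in Soft, adjusted p = 1.4e-05, edgeR). KRT8 fell in Soft (-0.98, adjusted p = 0.0033, edgeR) and was lower with every hairpin without passing (-0.95 in sh_PIP4K2B, adjusted p = 0.013, edgeR). COL1A1 rose in Soft (0.98, adjusted p = 0.0091, edgeR) and was at 174, 389 and 238 CPM with the hairpins against 130 ± 4.62 CPM in Control (SD, n = 3). It did not pass in sh_PIP4K2B (1.04, adjusted p = 0.0197, edgeR). Their part in the levels of the AP-1 and EGR genes was not tested.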
